A study of Mus musculus with 16 samples.

Results

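The circadian clock was described through 10 genes in GFP-positive intestinal stem and progenitor cells after vertical sleeve gastrectomy (VSG) or sham surgery. The genes were picked by symbol out of the 48440 genes listed for each intestinal segment, and all 10 were found, each as 1 entry. They are Arntl of the positive limb, Per1, Per2, Per3, Ciart, Nr1d1 and Nr1d2 of the negative limb, and the output genes Dbp, Tef and Hlf. How they differed between VSG and sham was already known when they were picked, so that contrast is given for them as values with no test.

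In nearly every cell, a heterodimer of BMAL1 (the product of Arntl) and CLOCK switches on genes that carry E-boxes in their control regions, among them the Per and Nr1d genes, Ciart and Dbp. The PER proteins, together with cryptochromes, and the product of Ciart shut that heterodimer off, while REV-ERB alpha and beta (the products of Nr1d1 and Nr1d2) repress Arntl through RRE sites, so Arntl normally peaks at the time of day when Dbp and Nr1d1 are low. DBP, TEF and HLF are related transcription factors that act at D-boxes and carry the rhythm to other genes. In the intestine, clocks of epithelial cells are set by light through the brain and also strongly by feeding times, and transporters of peptides, sugars and drugs are known to cycle.

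The cells came from female Lgr5-EGFP mice, whose Lgr5 gene, a marker of intestinal stem cells, also drives a green fluorescent protein (GFP). Obesity had been induced with a 60% high-fat diet for 16 weeks, in both surgery groups. The lateral part of the stomach was removed in VSG, and the stomach was only pressed with forceps in sham surgery. At 4 weeks after surgery the mice were fasted overnight, given a liquid meal and killed 15 minutes later, and 6 cm of each segment was dissociated, depleted of cells with CD31, CD45, annexin V or Sytox Blue, and sorted for GFP. All mice lived in a cycle of 12 hours of light and 12 hours of dark, and the time of day at which each was killed is not given in the sources used here. Ages are stated only as 8 to 16 weeks for the whole study, a range that does not cover 16 weeks of diet and 4 weeks after surgery. The 16 libraries came from 7 mice, each library being 1 segment of 1 mouse. Mice A12, B13, B14 and B8 (VSG) and B10 and B1 (sham) each gave a duodenal and a jejunal library. The ileal libraries came from B8 and B9 (VSG) and from B10 and B1 (sham). All values are normalized counts, which the authors scaled with DESeq2 within each segment, so levels were not compared between segments.

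Implied depth ranged from 33.7 to 63.6 M reads for duodenal, 22.2 to 57.8 M for jejunal and 10.9 to 36.4 M for ileal libraries, and 65.1% to 78.1% of genes were listed at 0 in a library. A single read was worth 0.586 to 2.07 normalized counts, and a value of 0 allows up to 3 reads, counting error only. Lgr5 was listed at 0 in the jejunal and ileal libraries of sham mouse B10 and was 152 to 6565 in the other 14 libraries. The stem cell markers (6 genes) summed to 43098 to 59540 in the jejunum after VSG against 13335 and 55235 after sham surgery, the lower value being B10. In the same library the 6 enterocyte markers summed to 1481400, against 211030 to 648970 in the other 5 jejunal libraries. None of the enterocyte markers was at 0 in any library, so these libraries held RNA of enterocyte genes as well. Which of the sorted cells it came from cannot be told from bulk libraries. Of the 4 immune markers, Cd3e was at 0 in 15 of 16 libraries and Cd79a in all 16, but Cd74 had 1765 to 68512 normalized counts and Ptprc up to 1534, with 4 libraries at 0.

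The known sequence elements of the clock were looked up in the promoters of the 10 genes, because the clock proteins act at them. RefSeq promoters (250 bases before to 50 after a start, GRCm38.p6) were at hand for 9 of the 10 genes with 12 starts, and none for Per2. All motifs were searched on both strands. The E-box CACGTG was held by 4 of the 12 starts, against 7.15% of 32851 promoters of this length. The D-box TTATGTAA was held by 1 start, against 0.938% of promoters. The RRE half-site, TAGGTCA or TGGGTCA, was held by 1 start, against 6.45%. Each of the following sequences runs 5′ to 3′ on the strand of its gene, and the capitals mark the motif. They are shown because they carry the elements at which the limbs act, the E-box, the D-box and the RRE. Ciart holds 3 E-boxes, which begin 116, 58 and 44 bases before its start (chr3:95882179-95882478, minus strand), and the upstream start of Per1 holds 1, which begins 166 bases before it (chr11:69098699-69098998, plus strand).
Ciart: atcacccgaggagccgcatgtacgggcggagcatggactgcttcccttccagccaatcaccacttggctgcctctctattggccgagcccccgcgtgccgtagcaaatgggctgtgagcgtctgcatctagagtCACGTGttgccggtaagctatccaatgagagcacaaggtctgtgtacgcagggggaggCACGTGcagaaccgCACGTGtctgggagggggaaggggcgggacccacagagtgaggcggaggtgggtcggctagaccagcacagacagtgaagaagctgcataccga
Per1, upstream start: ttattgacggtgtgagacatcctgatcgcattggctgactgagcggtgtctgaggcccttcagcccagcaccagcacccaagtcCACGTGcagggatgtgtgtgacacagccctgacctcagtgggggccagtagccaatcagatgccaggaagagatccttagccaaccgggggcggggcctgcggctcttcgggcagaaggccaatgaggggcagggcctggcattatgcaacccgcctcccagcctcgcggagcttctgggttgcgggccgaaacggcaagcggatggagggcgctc
Per3 holds D-boxes that begin 205 and 158 bases before its start (chr4:151044616-151044915, minus strand), the element at which DBP, TEF and HLF act. The downstream start of Arntl holds the RRE letters, the element of REV-ERB, beginning at base 31 after it (chr7:113207261-113207560, plus strand).
Per3: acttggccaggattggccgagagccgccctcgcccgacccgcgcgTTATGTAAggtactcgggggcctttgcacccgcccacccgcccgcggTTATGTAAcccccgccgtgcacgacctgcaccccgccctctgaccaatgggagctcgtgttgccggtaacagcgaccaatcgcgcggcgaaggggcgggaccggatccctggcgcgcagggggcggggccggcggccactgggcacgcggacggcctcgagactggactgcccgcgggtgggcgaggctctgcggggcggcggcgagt
Arntl, downstream start: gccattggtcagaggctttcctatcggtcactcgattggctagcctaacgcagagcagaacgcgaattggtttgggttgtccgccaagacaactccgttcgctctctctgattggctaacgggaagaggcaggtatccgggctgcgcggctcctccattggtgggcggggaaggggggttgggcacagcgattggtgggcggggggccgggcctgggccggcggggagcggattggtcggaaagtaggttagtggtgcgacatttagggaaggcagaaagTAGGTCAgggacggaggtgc
Both starts of Tef hold 1 E-box, which begins 127 bases before the upstream start and 138 before the downstream start. The windows of Dbp, Hlf, Nr1d1 and Nr1d2 hold none of these letters, which says nothing of elements elsewhere in these genes.

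Arntl (chromosome 7, 113207465 to 113314126, plus strand), the activator of the loop, was higher after VSG in the duodenum and the jejunum and lower in the ileum. In the duodenum it had 1754, 1823, 2242 and 1684 normalized counts in VSG mice A12, B13, B14 and B8, and 944 and 1115 in sham mice B10 and B1. No VSG library came down to the level of either sham library. The means were 1876 ± 251 (SD, n = 4) and 1030 ± 120 (SD, n = 2), and the log2 difference of VSG minus sham was 0.86 (SE 0.30 from limma). In the jejunum, in the same mouse order, it had 1459, 1018, 1224 and 1096 after VSG and 324 and 494 after sham surgery. Again the groups did not overlap, and the log2 difference was 1.57 (SE 0.50). Without either sham library in turn, or any other library, it was 1.27 to 1.87. In the ileum the order was turned. VSG mice B8 and B9 had 370.2 and 248 normalized counts, and sham mice B10 and B1 had 1000.3 and 1719, so that both VSG libraries lay below both sham libraries, with a log2 difference of -2.11 (SE 0.84). Mouse B8, the VSG mouse with all 3 segments, was therefore on the high side in its duodenum and jejunum and on the low side in its ileum. In such bulk libraries, fewer cells of a type and less RNA per cell cannot be told apart.

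**Figure D1:**
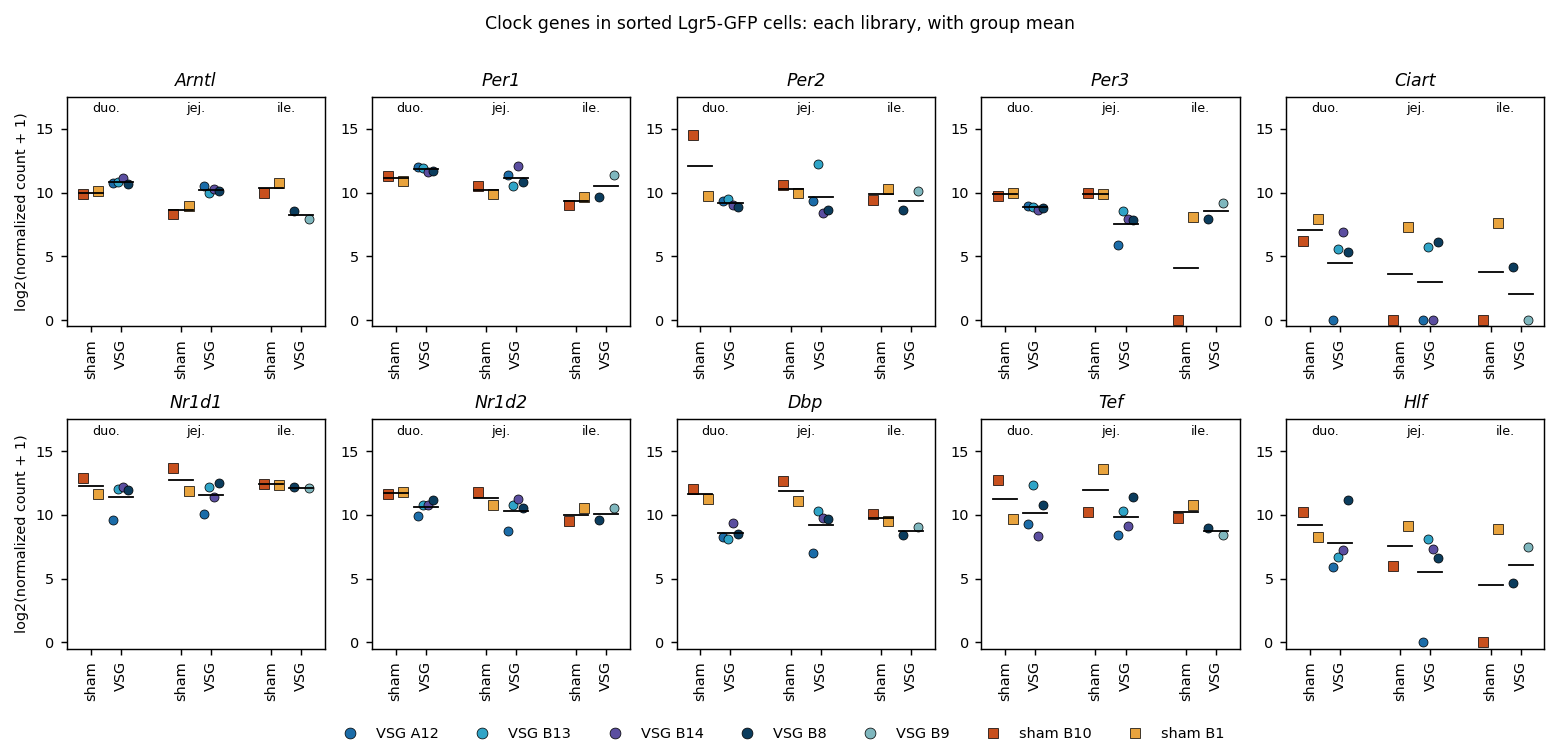
Each clock gene in each library, as log2(normalized count + 1) on the vertical axis, with sham and VSG libraries of the duodenum, jejunum and ileum side by side, a colour for each mouse and a bar for each group mean. Dbp is lower in every VSG library than in every sham library of its segment, and Arntl is higher after VSG in the duodenum and jejunum and lower in the ileum.

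The PER genes differed among themselves. Per1 (chromosome 11, 69095217 to 69109960, plus strand), a repressor that is also induced acutely by glucocorticoids and other signals, had 4227, 4009, 3103 and 3337 normalized counts in the duodenum after VSG and 2596 and 1915 after sham surgery. The groups did not overlap, and the log2 difference was 0.71 (SE 0.26). In the jejunum it had 2615, 1485, 4259 and 1808 after VSG and 1492 and 959 after sham surgery, and B13 was the only VSG library below the higher sham library. The jejunal log2 difference was 0.97 (SE 0.48). In the ileum it had 790.1 and 2720 after VSG and 515 and 802 after sham surgery, which overlap, with a log2 difference of 1.19 (SE 0.87). Per1 was thus the only negative limb member with a higher mean log2 value after VSG in all 3 segments.

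Per3 (chromosome 4, 151003652 to 151044665, minus strand), the least essential of the PER repressors, was lower after VSG in the proximal segments. In the duodenum it had 504, 480.2, 407 and 442 normalized counts after VSG and 859 and 1006 after sham surgery. Jejunal Per3 was 57.6, 382, 238 and 237 after VSG and 987 and 938 after sham surgery. Neither segment showed any overlap, and the log2 differences were -1.02 (SE 0.45) and -2.35 (SE 0.96). In the ileum Per3 had 245 and 571 after VSG, while sham mouse B1 had 275 and B10 was listed at 0, so the fitted log2 difference of 4.50 rests on that 0. The whole of Per3 lies within the span of Camta1 on the same strand, and Camta1 had 216 to 679 normalized counts in the duodenum with overlapping groups.

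Per2 (chromosome 1, 91415982 to 91459324, minus strand), the other main repressor, had 1 extreme library in each proximal segment. In the duodenum it had 637, 723, 512 and 475 normalized counts after VSG and 835 in sham mouse B1, but 23775 in sham mouse B10, which was 28.5-fold the next highest library. The log2 difference of -2.94 (SE 1.03) became -0.53 without B10. In the jejunum it was VSG mouse B13 that stood out, with 4748 normalized counts against 656, 337 and 409 in A12, B14 and B8 and 1591 and 994 in the sham mice. The ileal values were 399.6 and 1094 after VSG and 695 and 1257 after sham surgery. Jejunal and ileal groups overlapped, with log2 differences of -0.63 (SE 0.95) and -0.50 (SE 0.88).

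Ciart (chromosome 3, 95878503 to 95882251, minus strand), the repressor with 3 E-boxes in its promoter, was scarce. Its values were 0, 46.0, 117 and 40.5 normalized counts after VSG and 72.0 and 250.1 after sham surgery in the duodenum, and its highest library in the jejunum (157) and the ileum (193) was that of sham mouse B1. The groups overlapped in every segment. Ciart was listed at 0 in 1 duodenal, 3 jejunal and 2 ileal libraries, and an antisense gene, C920021L13Rik, spans the whole of it. In the duodenum C920021L13Rik had 0, 13.95, 10.9 and 22.9 normalized counts after VSG and 57.6 and 90.4 after sham surgery. Its jejunal groups overlapped, and it was listed at 0 in all ileal libraries.

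Nr1d2 (chromosome 14, 18204054 to 18239127, minus strand) and Nr1d1 (chromosome 11, 98767932 to 98775333, minus strand) encode the repressors of Arntl. Nr1d2 had 935, 1762, 1706 and 2278 normalized counts in the duodenum after VSG and 3143 and 3639 after sham surgery, with no overlap and a log2 difference of -1.09 (SE 0.37). In the jejunum its values were 419, 1703, 2432 and 1504 after VSG and 3641 and 1772 after sham surgery. Those groups overlapped, and the log2 difference of -0.998 (SE 0.67) became 0.05 without the libraries of mice B10 and A12. That step was chosen after the values were seen and leaves out the highest sham and the lowest VSG library. In the ileum Nr1d2 was 766 and 1520 after VSG and 723 and 1470 after sham surgery, nearly level (log2 difference 0.07, SE 0.76).

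Nr1d1 had 753, 4076, 4557 and 4039 normalized counts in the duodenum after VSG and 7634 and 3248 after sham surgery. Its jejunal values were 1092, 4689, 2673 and 5679 after VSG and 12987 and 3652 after sham surgery. In both segments A12 was the lowest library and B10 the highest. Of the other 4 mice, sham mouse B1 lay below the VSG mice in the duodenum and among them in the jejunum. The log2 differences of -0.86 (SE 0.70) and -1.21 (SE 0.68) turned to 0.38 and 0.18 without the libraries of A12 and B10. That step was chosen after the values were seen. Leaving out the lowest VSG and the highest sham library can only raise the difference. In the ileum Nr1d1 had 4663 and 4338 after VSG and 5512 and 5159 after sham surgery, which do not overlap, but the log2 difference was only -0.25 (SE 0.38). Nr1d1 shares 1075 of its 7402 bases with Thra on the opposite strand. Thra, a thyroid hormone receptor, had 5023 to 8648 normalized counts in the duodenum after VSG and 5421 and 5745 after sham surgery, with its highest value in A12, where Nr1d1 was lowest. The library kit keeps strand, but the strand setting of the quantification is not given in the sources used here, so reads of the shared bases cannot be told apart.

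Dbp (chromosome 7, 45705088 to 45710203, plus strand), the output gene that the loop drives most directly, had the largest log2 difference of the 10 genes in the duodenum and in the jejunum. In the duodenum it had 302, 266, 658 and 369 normalized counts in VSG mice A12, B13, B14 and B8 and 4221 and 2414 in sham mice B10 and B1. All VSG libraries were far below both sham libraries. The means were 399 ± 178 (SD, n = 4) and 3317 ± 1278 (SD, n = 2), and on the log2(normalized count + 1) scale the level was 8.52-fold lower after VSG, a log2 difference of -3.09 (SE 0.50). Jejunal libraries had 131, 1263, 869 and 810.1 after VSG and 6602 and 2142 after sham surgery. The groups were again apart, 6.43-fold on the same scale (log2 difference -2.68, SE 0.87). Without the libraries of B10 and A12, a step chosen after the values were seen, the duodenal difference was -2.59 and the jejunal difference -1.15. In the ileum Dbp had 337 and 536 after VSG and 1069 and 711 after sham surgery, also without overlap, with a log2 difference of -1.04 (SE 0.85). Dbp shares 737 of its 5116 bases with Sphk2, a sphingosine kinase gene on the opposite strand. Sphk2 had 4175 to 5080.4 normalized counts in the duodenum after VSG and 6556 and 8734 after sham surgery, and in the jejunum its groups overlapped, at 2621 to 5408 after VSG and 3922 and 5959 after sham surgery.

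Tef (chromosome 15, 81802421 to 81826863, plus strand), a relative of Dbp, varied widely between mice of the same surgery. In the duodenum it had 626, 5138, 315 and 1763 normalized counts after VSG and 6840.3 and 835 after sham surgery. The jejunal values were 338, 1249, 570.4 and 2709 after VSG and 1225 and 12671 after sham surgery. The sham mouse with the high value was B10 in the duodenum and B1 in the jejunum, so the log2 differences of -1.05 (SE 1.10) and -2.13 (SE 0.97) each rest on a different mouse, and the duodenal one was 0.47 without B10. In the ileum Tef had 508 and 346 after VSG and 860.3 and 1725 after sham surgery, with no overlap and a log2 difference of -1.54 (SE 0.82).

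Hlf (chromosome 11, 90336536 to 90390895, minus strand), the third of these factors, overlapped between the groups in every segment. It had 59.9, 105, 150.4 and 2319 normalized counts in the duodenum after VSG and 1185 and 307 after sham surgery. The VSG library of B8 was the highest of the segment. In the jejunum Hlf was listed at 0 in A12 and was 96.2 to 268 in the other VSG mice, against 61.7 and 545 after sham surgery. In the ileum it was 24.2 and 175 after VSG and 0 and 480.4 after sham surgery.

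Counted over the 10 genes, the VSG libraries lay entirely below the sham libraries for 4 genes in the duodenum (Dbp, Per2, Per3 and Nr1d2) and entirely above for 2 (Arntl and Per1). Of all 16867 duodenal genes with a mean above 10, 8.01% lay entirely below and 6.44% entirely above. The jejunum had 2 below (Dbp and Per3) and 1 above (Arntl), where the shares over 15857 genes were 6.21% and 6.59%. The ileum had 4 below (Dbp, Tef, Nr1d1 and Arntl) and 0 above, where the shares over 13853 genes were 11.6% and 17%. Since the genes were picked on this contrast, nothing is read from these counts. All 10 genes passed the filter on the mean in every segment. By log2 difference, 8 of 10 were lower after VSG in the duodenum (49.3% of all genes tested), 8 in the jejunum (45%) and 6 in the ileum (43%). The median over the 9 negative limb and output genes was -1.09, -1.21 and -0.25, beside 0.01, 0.11 and 0.24 over all genes tested. Leaving out each library in turn gave medians of -1.74 to -0.53 in the duodenum, -1.87 to -0.53 in the jejunum and -0.74 to 0.58 in the ileum.

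**Figure D2:**
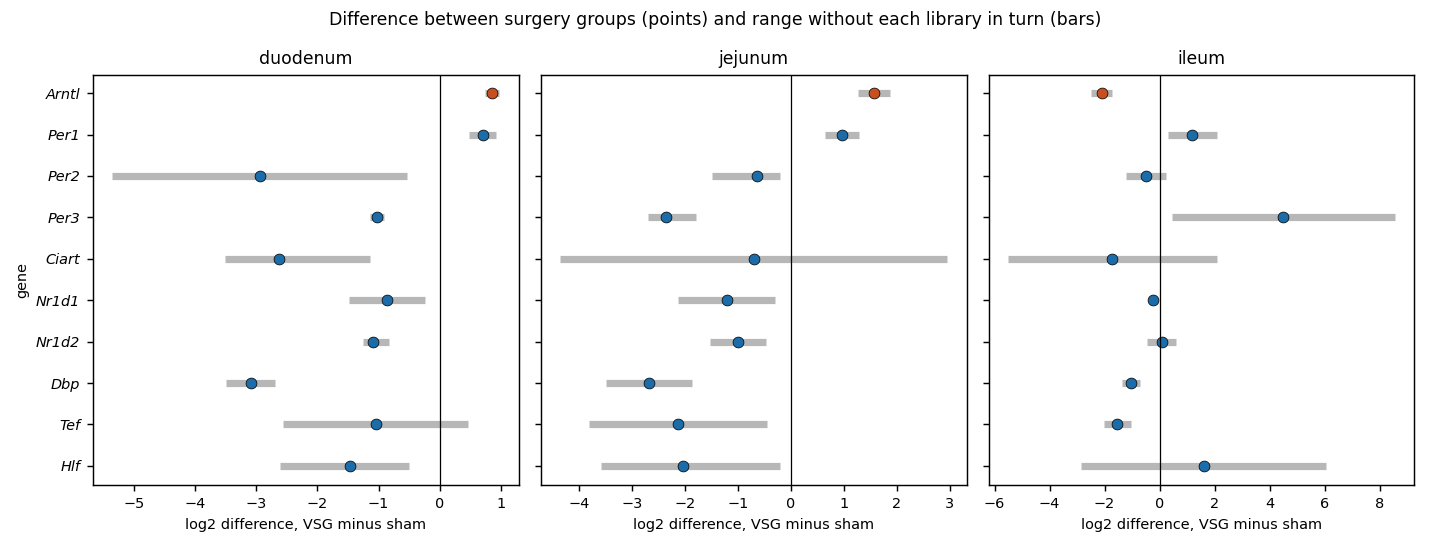
Log2 difference of VSG minus sham for each clock gene in the duodenum, jejunum and ileum (points), with the range obtained when each library is left out in turn (horizontal bars). The bars of Dbp stay below 0 in all 3 panels, those of Arntl stay above 0 in the duodenum and jejunum and below 0 in the ileum, and those of Tef (duodenum), Ciart (jejunum and ileum), Hlf (ileum), Nr1d2 (ileum) and Per2 (ileum) cross 0.

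Dbp and Arntl were set against each other within each library, since a factor that scales the whole library drops out of their ratio. Lengths were not divided out, so the ratio is compared only between libraries of a segment. In the duodenum, Dbp per Arntl was 0.172, 0.146, 0.293 and 0.219 in VSG mice A12, B13, B14 and B8 and 4.47 and 2.17 in sham mice B10 and B1. In the jejunum it was 0.0895, 1.24, 0.71 and 0.739 after VSG and 20.4 and 4.34 after sham surgery. Each VSG mouse lay below each sham mouse in both segments. This follows from the separation of Dbp and of Arntl given above and is no further evidence. In the ileum the ratio was 0.909 in B8 and 2.16 in B9 after VSG, and 1.07 in B10 and 0.414 in B1 after sham surgery, so the groups overlapped there. Both sham mice had a lower ratio in the ileum than in their other segments, while B8 had a higher one, but the scaling of each segment is separate and this was not tested.

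**Figure D3:**
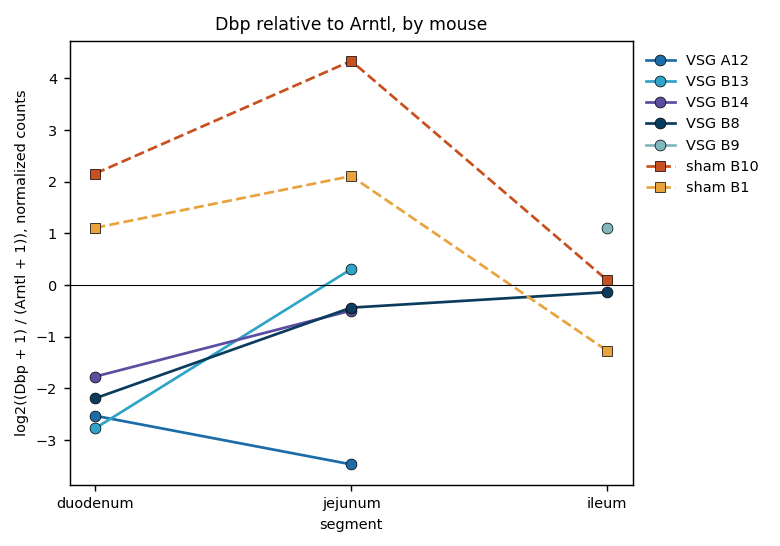
Log2 ratio of Dbp to Arntl (each as normalized count + 1) for every mouse, with segments on the horizontal axis and a line joining the segments of a mouse. Sham mice lie above VSG mice in the duodenum and the jejunum, from 1.11 to 4.34 against -3.47 to 0.31, and the surgery groups overlap in the ileum.

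Enterocyte markers moved with surgery in the same segments, and their values belong beside those of the clock. All 6 (Alpi, Sis, Apoa1, Apoa4, Fabp1 and Lct) had a lower mean log2 value after VSG in the duodenum and jejunum, and 3 of 6 in the ileum. Their sum was 241000 to 476060 in the duodenum after VSG against 537610 and 797330 after sham surgery, and 211030 to 648970 against 519280 and 1481400 in the jejunum. The ileal sums were 131900 and 323610 after VSG and 243870 and 254670 after sham surgery. Their part in the clock values was not tested, but the clock genes were also expressed per enterocyte marker count, a step chosen after the values were seen. Dbp per 100000 enterocyte marker counts was 125, 66.0, 138 and 137 in the duodenum after VSG and 529 and 449 after sham surgery. The jejunal values were 61.9, 195, 226 and 218 after VSG and 446 and 412 after sham surgery, and in the ileum 255 and 166 after VSG and 439 and 279 after sham surgery. The groups did not overlap in any segment, and the log2 differences of Dbp on this scale were -2.12, -1.46 and -0.77. Those of Arntl were 1.83, 2.80 and -1.84. The median over the 9 negative limb and output genes became -0.12 in the duodenum, 0.02 in the jejunal and 0.03 in the ileal libraries. Nr1d1 was 0.11, 0.02 and 0.03 on this scale, Nr1d2 was -0.12, 0.23 and 0.34, and Per3 was -0.05 in the duodenum but -1.12 in the jejunum. Duodenal Per2, with its extreme sham library, was -1.97. Sums of other marker lists also did not overlap between the groups in places. The 3 tuft cell markers summed to 8466 to 18596 in the duodenum after VSG against 3187 and 7009 after sham surgery. In the ileum, where Arntl was lower after VSG, the 6 stem cell markers summed to 11485 and 18848 against 5116 and 8954, the 5 enteroendocrine markers to 6022 and 8592 against 3064 and 4646, the 4 goblet cell markers to 121090 and 145850 against 66919 and 106030, the 3 proliferation markers to 2590 and 5163 against 2314 and 2488, and the 4 immune markers to 28399 and 34513 against 36976 and 68512. The ileal immune sum was mostly Cd74. Cd3e and Cd79a were at 0 in all ileal libraries, and Ptprc in those of B8, B10 and B1. Of single genes with a mean above 10, 17% lay entirely above and 11.6% entirely below in the ileum, and 6.44% entirely above in the duodenum. Nothing is therefore read from the separation of these sums. The part of these lists in the clock values was not tested either.

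**Figure D4:**
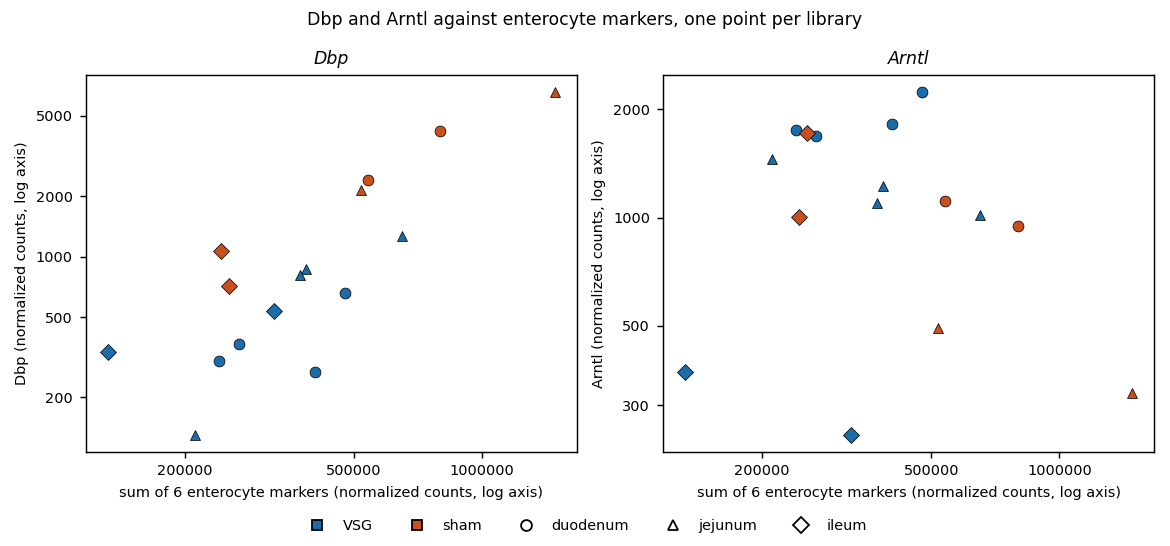
Dbp (left) and Arntl (right) in each library against the sum of 6 enterocyte markers, all as normalized counts on log axes, with a colour for each surgery group and a shape for each segment. Jejunal mouse B10 has the highest marker sum (1481400) together with the highest Dbp (6602), and the sham libraries of the duodenum and jejunum lie above the VSG libraries of their segment for Dbp and below them for Arntl.

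Mice were then followed from the duodenum to the jejunum, which the choice of genes did not use. For each gene, the deviation of a mouse from the mean of its surgery group was compared in sign between the segments. The segments agreed in sign for 39 of 60 combinations of mouse and gene (65.0%), beside 50.8% over all 14718 genes with a mean above 10 in both segments. The 2 sham mice mirror each other around their mean and count as 1 observation, and the 10 genes are not independent. Arntl, Per2, Ciart and Nr1d1 agreed in 5 of 6 mice, Dbp, Per1, Nr1d2 and Tef in 4, Hlf in 2 and Per3 in 1.

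The genes whose pattern was most like that of Dbp were sought by Pearson correlation over the 16 libraries, each centred on the mean of its segment, among 10711 genes with a mean above 50 in all segments. The correlation is a description, as the libraries share 7 mice and differ in RNA of enterocyte markers. Centring on the segment also leaves the difference between VSG and sham in r. The clock genes were picked on that contrast, so their r with Dbp partly restates it and is no further evidence. The 10 highest were Slc5a4a (r = 0.94), Ms4a10 (0.923), Cbr1 (0.905), Ace (0.903), Prap1 (0.901), Slc28a1 (0.90), Cyp2d26 (0.894), P4hb (0.89), Cda (0.889) and Treh (0.888), where the middle 90% of genes lay between -0.505 and 0.558. Slc5a4a and Slc28a1 encode transporters, and Ace and Treh encode brush border enzymes of enterocytes. The 6 enterocyte markers themselves had r of 0.679 to 0.849. The 10 lowest were Gnpnat1 (-0.843), Srebf2 (-0.828), Fntb (-0.825), Cd164 (-0.819), Cd9 (-0.795), Suox (-0.781), Rap1gap2 and Cwf19l2 (-0.764 each), and Tspan1 and Osbpl7 (-0.761 each). Among the clock genes, Nr1d2 (0.787) and Nr1d1 (0.721) were closest to Dbp, followed by Per2 (0.578), Hlf (0.401), Tef (0.387) and Per3 (0.232), whereas Arntl (-0.485) and Per1 (-0.503) ran the other way. Ciart had too low a mean to enter. With centring on segment and surgery group together, only 2 of the 10 highest genes stayed among the 10, and with Spearman's rho 4 did.

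The remaining clock machinery, 23 genes that were not among the 10, was tested between VSG and sham with limma, with adjusted p-values over all genes. No gene of this list was called in any segment (p under 0.05, adjusted p under 0.2, absolute log2 difference above 0.5 and mean above 50), of 23 tested for duodenal, 22 for jejunal and 19 for ileal libraries. Over all genes these thresholds called only 4, 2 and 0 genes (0.0237%, 0.0126% and 0%). A list of this size could therefore hardly hold a called gene, and its count of 0 does not show that these genes were unchanged. At an unadjusted p under 0.05, 1 of 23 was lower in the duodenum and 1 of 22 higher in the jejunum, with 0 of 19 for the ileum, beside 6.27%, 6.04% and 3.28% of all genes in either direction. Limma without a trend called none either. The median log2 differences were -0.09, -0.09 and 0.04.

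Among the partners of Arntl, Clock had log2 differences of -0.19 (SE 0.27), -0.20 (SE 0.40) and 0.12 (SE 0.53) in the duodenum, jejunum and ileum, and Npas2, which can take the place of Clock, had 0.29 (SE 0.36), 0.32 (SE 0.82) and -0.75 (SE 0.85). Arntl2, a paralog of Arntl, was at most 322 normalized counts and was listed at 0 in all ileal libraries. The cryptochrome genes Cry1 and Cry2, partners of the PER repressors, differed by -0.22 (SE 0.82) and 0.50 (SE 1.05) in the duodenum and by -0.05 (SE 0.96) and -0.63 (SE 1.04) in the jejunum. In the ileum they differed by 0.97 (SE 1.85) and 4.16 (SE 3.29), the latter with a sham library of Cry2 at 0. None of these passed the test.

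Of the loop that acts on RRE sites beside REV-ERB, the activator genes Rora and Rorb were near 0 in the duodenum, at most 67.5 and 39.2 normalized counts. Nfil3, which represses at the D-boxes where DBP activates, had log2 differences of 0.80 (SE 0.63), 0.65 (SE 0.73) and 3.21 (SE 3.56), the last with a sham library at 0. It did not pass the test in any segment.

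The genes behind those counts were Timeless in the duodenum and Csnk1e in the jejunum, named after their values were seen. Timeless, a partner of replication and clock proteins, had 549 to 1013 normalized counts after VSG and 1666 and 1952 after sham surgery (log2 difference -1.26, SE 0.39, adjusted p = 0.555 from limma). Csnk1e, a kinase that marks PER proteins for degradation, had 804 to 1636 in the jejunum after VSG and 139 and 374 after sham surgery (log2 difference 2.29, SE 0.63, adjusted p = 0.760 from limma). The extremes of the list in the duodenum were Fbxl21 (1.36, SE 1.58) and Rora (-2.29, SE 2.37), in the jejunum Arntl2 (4.83, SE 2.70) and Rorb (-3.43, SE 2.34), and in the ileum Wee1 (5.92, SE 3.32) and Btrc (-4.41, SE 3.32). Jejunal Arntl2 and ileal Wee1 were at 0 in both sham libraries, and ileal Btrc was at 0 in a VSG library.

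**Figure D5:**
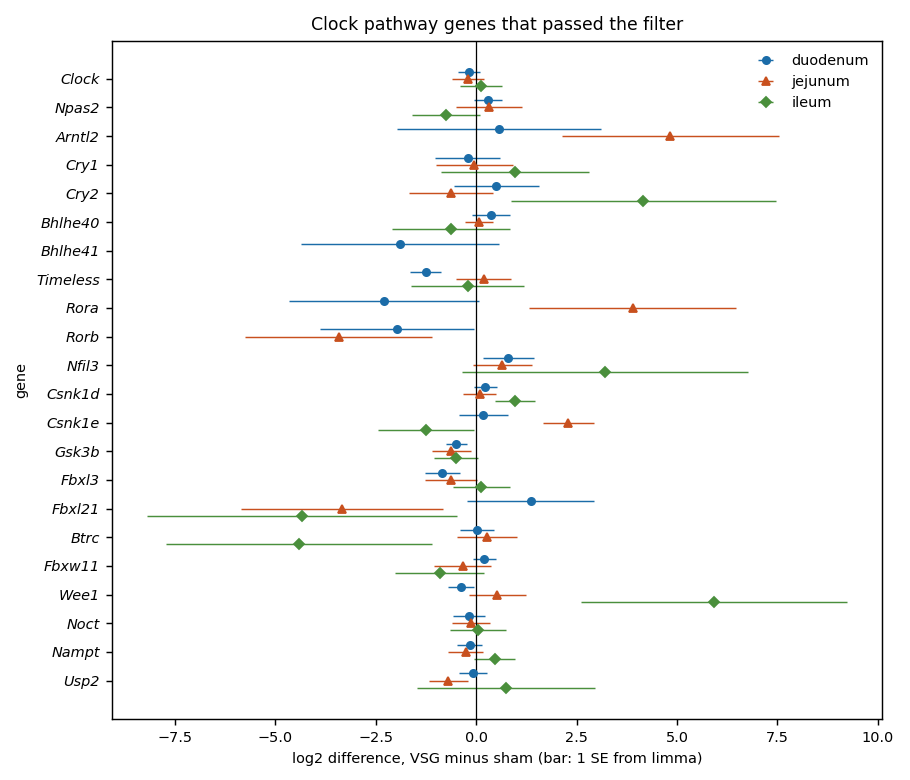
Log2 difference of VSG minus sham (horizontal axis) for other clock pathway genes that passed the filter, in the 3 segments, with bars of 1 SE from limma. Clock, Csnk1d and Noct lie near 0 in the duodenum with narrow bars, and Rora, Rorb, Arntl2 and Fbxl21 have bars of more than 1 unit.

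Whether the difference between VSG and sham itself differed between the jejunum and the duodenum was tested on each mouse's jejunal minus duodenal log2 value. Of 22 pathway genes tested, 0 were called and 1 (Timeless, 1.45, SE 0.51) had an unadjusted p under 0.05, with adjusted p-values of at least 0.985 from limma. Over all 14718 genes 0% were called and 4.23% had a p under 0.05, so the lack of calls in this list is not read as a lack of difference.

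Genes that respond to signals able to set peripheral clocks, and intestinal transporters known to cycle, were read as lists of genes with known roles. These lists were chosen with earlier results of these data known, so their p-values and counts are descriptions only. Of 5 glucocorticoid-induced genes, Fkbp5, a chaperone induced by glucocorticoids, had 879 to 5553 normalized counts in the duodenum after VSG and 594 and 617 after sham surgery (log2 difference 1.86, SE 0.63, adjusted p = 0.611 from limma). Jejunal Fkbp5 was 624 to 2614 after VSG and 56.0 and 375 after sham surgery (log2 difference 3.32, SE 0.85, adjusted p = 0.760 from limma). Klf9 was also higher after VSG in the duodenum (0.44, SE 0.32) and the jejunum (0.56, SE 0.46). Sgk1, also glucocorticoid-induced, was lower in both segments (-0.65 and -0.28). Tsc22d3 was level in the duodenum (-0.01) and lower in the jejunum (-0.65). Zbtb16 was scarce (4.28 with both sham libraries at 0 in the duodenum, -1.61 in the jejunum). None of the 5 was called. The ileal extremes were Fkbp5 (4.40, with a sham library at 0) and Klf9 (-1.22). At an unadjusted p under 0.05, 1 of the 5 was higher and 1 lower in the duodenum and 1 higher in the jejunum. The 7 immediate early genes had medians of 0.17 (duodenum), -0.21 (jejunum) and 0.88 (ileum). In the ileum Egr1 (1.69, SE 0.52) and Atf3 (1.62, SE 0.44) had the highest differences and an unadjusted p under 0.05. The lowest was Fosb in each segment (-0.34, -0.97 and -0.01), the highest was Atf3 in the duodenum (0.70) and Ier2 in the jejunum (0.26), and none was called. Of 6 intestinal transporters that are known to cycle, 5 had lower values after VSG in the duodenum and 6 in the jejunum, with medians of -1.36 and -1.67, and 3 of 6 in the ileum (median 0.15). Abcc2, an export pump of the brush border, fell by 1.86 on the log2 scale in the duodenum (adjusted p = 0.196 from limma) and was the only one called. Slc15a1, the peptide transporter, differed by -1.42 (SE 0.45) in the duodenum and -1.51 (SE 0.53) in the jejunum and did not pass the test, and Abcb1a, another export pump and the lowest of the list in each segment, by -2.22 (SE 0.44), -2.87 (SE 0.87) and, in the ileum, -1.39 (SE 0.43). Slc9a3, the sodium-proton exchanger, was the highest of the list, with 0.21 (SE 0.32), -0.64 (SE 0.92) and 1.41 (SE 0.97). At an unadjusted p under 0.05, 4 of the 6 duodenal, 3 of the 6 jejunal and 1 of the 6 ileal values were lower. Over all genes the shares in either direction were 6.27%, 6.04% and 3.28%, and 0.0237% were called in the duodenum. The 6 transporters are enterocyte genes too. Their directions were mostly those of the 6 enterocyte markers in the duodenum and jejunum, but duodenal Slc9a3 went the other way. The part of enterocyte content in these differences was not tested.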

How the data were processed

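Strand-specific libraries of poly(A) RNA were sequenced as single reads. The authors mapped the reads to mm10 with STAR 2.5.3a, quantified transcripts with Salmon 0.6.0 and deposited a signal value per gene and library, a count normalized with DESeq2 within each segment. The authors left out libraries that mapped poorly. Their deposited log2 fold changes and p-values (Wald test) were not used. Depth was implied from the commonest low value above 0 in each library, taken as the worth of 1 read. No count model was run, as most values are not whole reads.

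The 10 clock genes and all lists were chosen with earlier results of these data known. Each segment was fitted with limma 3.58.1 (R 4.3.3), with a variance trend, on the log2 of normalized count plus 1, for genes whose mean exceeded 10, with Benjamini-Hochberg adjustment over all of them. The clock genes are described without a test. Names follow these lists: all members, partners of Arntl, Cry1, Cry2, RRE loop genes, called genes, the extremes of each list, and the 10 genes most and 10 least like Dbp. Of these, 1 gene is not reported here. Other genes were named after their values were seen. Replicates are separate mice. Numbers shared by VSG and sham mice name different mice. The fit was checked on simulated data. Alternatives were pseudocounts of 0.5 and 10, no filter or a mean above 50, quantile normalization, equal totals, no trend, an adjusted p limit of 0.05, each library left out in turn and a replicate block. Leaving out mice B10 and A12 together, and values per enterocyte marker count, were added after the values were seen. Python 3.11.15 with numpy 2.4.6, pandas 2.3.3 and matplotlib 3.10.9 was used. Positions follow GENCODE M21 (GRCm38).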

Additional observations from a re-analysis of the deposited data

Results flagged for a closer look

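In 20 groups of 4 VSG libraries, the gap of an extreme library to its nearest neighbour was compared with the range of the group. In all, 3 passed the critical value of Dixon's test. The gaps were taken on normalized counts, not on the log2 scale used elsewhere. Chance gives about 1 in 20 only for normally distributed values, which such counts need not be, so the number of flags is not set against chance. For Per2 in the jejunum the gap of B13 (4748 normalized counts, next 656) was 0.928 of the range. For Hlf in the duodenum the gap of B8 (2319, next 150.4) was 0.96 of the range, and the same mouse had 96.2 in the jejunum, among the other VSG mice. For Nr1d1 in the duodenum the gap of A12 (753, next 4039) was 0.864 of the range, and A12 was also the lowest of the jejunum (1092). Groups of 2 sham libraries could not be examined this way, which leaves the Per2 value of 23775 in duodenal mouse B10 outside it.

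Arntl lay on opposite sides in different segments. Every VSG library was above every sham library in the duodenum and jejunum and below in the ileum, and the log2 difference of the ileum minus that of the duodenum was -2.97, and minus that of the jejunum -3.68. This difference between segments was not tested, and the ileum holds 4 libraries, of which VSG mouse B9 has no other segment here.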

How the results depend on the processing

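No other clock pathway gene was called in the duodenum or in the comparison between segments under any alternative run, and the replicate block, which pairs unrelated mice, called 0 in the duodenum. In the jejunum, leaving out each library gave 0 to 6 called genes, the 6 (Csnk1d, Csnk1e, Nampt, Rorb and Wee1 among them) without sham mouse B1, and in the ileum 0 to 1 (Wee1, without VSG mouse B9). In such fits the lone library of a group is assumed to vary like the others. Without B1, the lone jejunal sham library was that of B10, with Lgr5 at 0. Its stem cell markers summed to 13335 and its enterocyte markers to 1481400. The share of all genes called in these fits is not given here. The counts of 6 and 1 therefore have no background, and nothing is read from them. The Arntl difference in the jejunum was 1.27 to 1.87 when each library was left out and 1.17 without mice B10 and A12, and the ileal median of the 9 other clock genes was -0.74 to 0.58. Per enterocyte marker count, duodenal Arntl was 1.83 and jejunal Arntl 2.80, and the median of the 9 genes was -0.12 and 0.015, so these medians depend on that scale. Without B10 and A12, left out together after the values were seen, they were -0.57 and -1.15. The cause of these changes was not tested. Of 306 values of single clock genes other than Arntl, 23 changed sign, none of them of Dbp, Per1 or Per3, and Arntl changed sign under none of the alternatives. Equal totals shifted the median of all genes by 0.22 in the jejunum and 0.11 in the ileum, and quantile normalization by -0.12 and -0.22, which turned Nr1d2 to -0.01 and Hlf to -0.09 in the ileum. With 2 sham mice a segment and values of 0 in some libraries, Ciart, Hlf, Rora and Arntl2 are poorly measured.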
